A study of Homo sapiens with 12 samples.

Results

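IRS1, IRS2, FGFR2 and EGFR pass growth factor signals towards mTOR complex 1, and their transcripts were followed here through everolimus treatment. They are the insulin receptor substrates (IRS1 and IRS2) and the receptor tyrosine kinases for FGFs (FGFR2) and EGF (EGFR). The 4 genes were chosen by name among those annotated to the array's probe sets, with earlier results of these data known. They make up 4 of the 14884 genes with a named probe set. Each had a single probe set (16909165 for IRS1, 16780917 for IRS2, 16719025 for FGFR2 and 17046135 for EGFR), and all 4 passed the filter on low values. The study asks which genes go with everolimus resistance in cutaneous squamous cell carcinoma. The cells were A431 and HSC-1, both established lines of that human tumour. Each line received the vehicle DMSO or everolimus at 100 nM, for 72 h in each case. Everolimus is a relative of rapamycin and blocks mTOR complex 1. Each of the 4 groups has 3 arrays. Whether these were 3 independent cultures is not stated, and the p-values therefore reflect array-to-array spread alone, possibly technical. Each line stands for 1 tumour, neither is labelled resistant or sensitive, and the 2 serum levels the labels give for the medium are not tied to a line.

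IRS1 and IRS2 are docking proteins: activated insulin and IGF1 receptors phosphorylate them on tyrosine, and they then recruit PI3 kinase, which leads to AKT and mTOR complex 1. S6 kinase, downstream of mTOR complex 1, phosphorylates IRS proteins on serine and so promotes their inactivation and degradation, a negative feedback loop that rapamycin and its analogues relieve. AKT also keeps FOXO transcription factors out of the nucleus, and IRS2 is a textbook FOXO target in liver. FGFR2 in epithelia mainly binds FGF7 and FGF10 from the stroma, and EGFR binds EGF, TGFA, amphiregulin and HBEGF. A431 cells are a classical model of EGFR signalling because they carry extra copies of the EGFR gene.

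Values are log2 RMA levels of a probe set, and a difference of 1 is a doubling of the measured signal. Array medians over all 53617 probe sets lay between 4.34 and 4.39, and pairs of arrays within a group correlated at 0.989 to 0.992. Of 12 squamous keratinocyte markers, 6 had a named probe set (KRT5, KRT14, KRT16, SFN, DSG3 and DSC3), and all 6 lay above the array median on every array, with a mean level per array from 9.0 to 9.27. That mean was 9.17 to 9.27 in A431 with DMSO and 9.0 to 9.02 with everolimus, and 9.11 to 9.21 and 9.12 to 9.20 in HSC-1; its part in the results below was not tested. Among markers of other cell types, 0 or 1 of 2 fibroblast genes, 2 of 5 melanocyte genes, 1 or 2 of 3 leukocyte genes and 1 of 4 endothelial genes lay above the median on all 3 arrays of a group. The leukocyte mean level was 5.04 to 5.09 in HSC-1 with DMSO and 4.75 to 4.92 with everolimus, and its part was not tested either.

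In HSC-1, everolimus raised IRS2 by 1.81-fold and FGFR2 by 1.46-fold and lowered IRS1 by 1.34-fold, while the 95% interval of the EGFR difference reached no further than 0.09 on the log2 scale. In A431 none of the 4 genes passed the threshold of an adjusted p of 0.05. So 3 of the 4 genes passed in HSC-1, where 18.6% of the 10613 genes tested passed in either direction, and 0 of 4 in A431, where 6.73% passed. These counts are descriptions, because the 4 genes were chosen with earlier results of these data known. The IRS1 call in HSC-1 was lost under some alternatives given below. At an unadjusted p under 0.05 the A431 count was also 0 of 4, against 19.1% of all genes. The difference between the lines was itself past the threshold for IRS2 and FGFR2, and not for IRS1 or EGFR. Both differences were upwards, as for 4.84% of all genes, and 5.69% passed downwards.

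**Figure D1:**
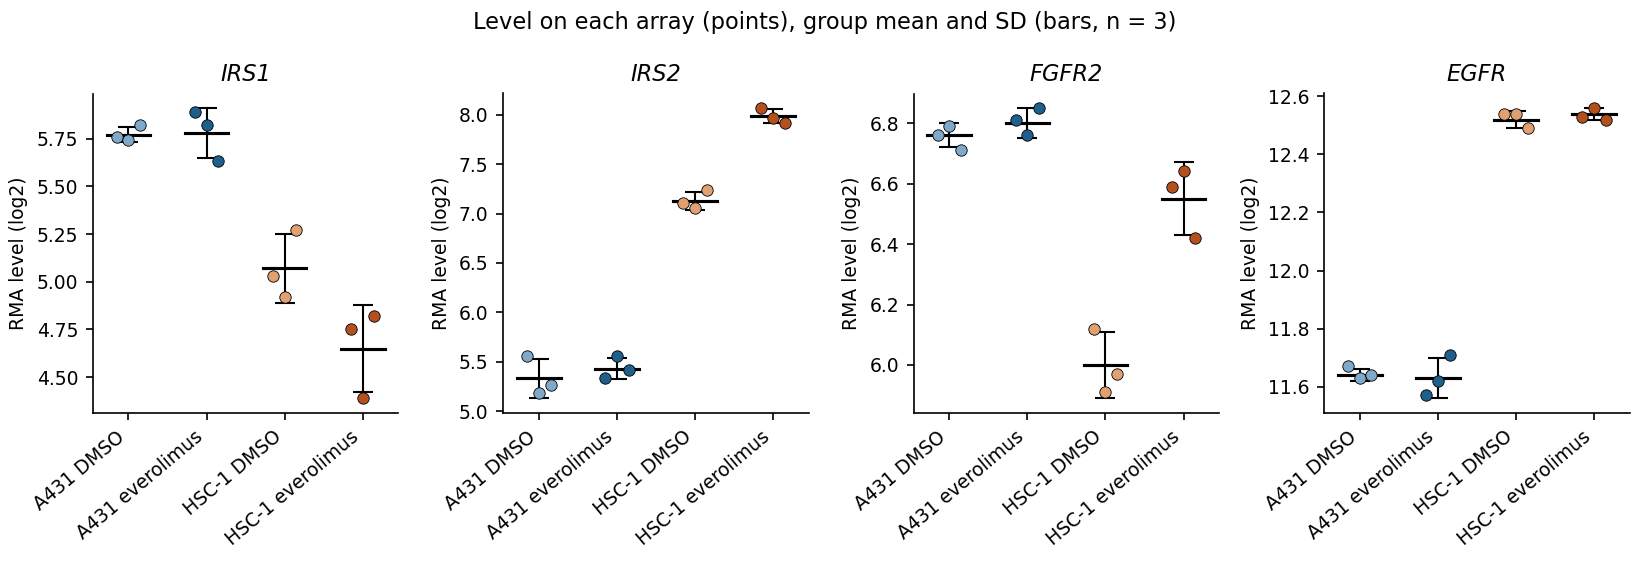
RMA level (log2) of IRS1, IRS2, FGFR2 and EGFR on each of the 12 arrays, by cell line and treatment, with each gene on its own axis. Points are arrays, horizontal bars are group means and error bars are SDs of 3 arrays. IRS2 and FGFR2 are higher and IRS1 is lower on the 3 HSC-1 arrays with everolimus than on the 3 with DMSO, while the A431 groups overlap for each gene.

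IRS2 had the largest change of the 4. In HSC-1 its level was 7.11, 7.06 and 7.24 on the DMSO arrays and 8.07, 7.97 and 7.92 on the everolimus arrays. Each everolimus array lay above each DMSO array, a separation that 33.3% of all genes tested show in this line. The means were 7.13 ± 0.09 and 7.99 ± 0.07 (SD, n = 3), a log2 difference of 0.85 ± 0.09 (SE, 95% interval 0.66 to 1.05, limma adjusted p = 4.36e-06). Among the 10613 genes tested it ranked 13 in size of rise, and 0.377% of genes had a larger difference in either direction.

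In A431 the IRS2 level was 5.56, 5.18 and 5.26 with DMSO and 5.33, 5.56 and 5.42 with everolimus. The arrays of both treatments overlapped, and 24.5% of all genes had groups that did not. The log2 difference was 0.10 ± 0.09 (95% interval -0.10 to 0.30, limma adjusted p = 0.636), so the upper bound in A431 lies below the lower bound in HSC-1. The HSC-1 effect exceeded the A431 effect by 0.75 ± 0.13 (95% interval 0.47 to 1.03, limma adjusted p = 0.00109), a comparison in which 10.5% of all genes passed. IRS2 passed in HSC-1 and in the difference between the lines under every alternative listed below, at adjusted p values up to 0.000229 and 0.0087.

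FGFR2 rose in HSC-1 from 6.12, 5.91 and 5.97 on the DMSO arrays to 6.59, 6.64 and 6.42 on the everolimus arrays. The groups did not overlap, and the 3 everolimus arrays were the higher ones. Means were 6.0 ± 0.11 and 6.55 ± 0.12 (SD, n = 3), a log2 difference of 0.55 ± 0.08 (SE, 95% interval 0.38 to 0.71, limma adjusted p = 6.95e-05), which ranked 92 among rises. In A431, levels of 6.76, 6.79 and 6.71 with DMSO stood against 6.81, 6.76 and 6.85 with everolimus, which overlap. The A431 difference was 0.05 ± 0.08 (95% interval -0.11 to 0.21, limma adjusted p = 0.806). The effect was larger in HSC-1 by 0.50 ± 0.11 (95% interval 0.27 to 0.73, limma adjusted p = 0.00611), and this too passed under each alternative, at adjusted p values up to 0.0214. A whole-transcript probe set does not separate the epithelial from the mesenchymal splice form of FGFR2.

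IRS1, the other insulin receptor substrate, moved against IRS2 in HSC-1. Its level was 5.03, 4.92 and 5.27 with DMSO and 4.75, 4.39 and 4.82 with everolimus. The 3 everolimus arrays were the lower ones, with a narrow gap between the groups. Means of 5.07 ± 0.18 and 4.65 ± 0.23 (SD, n = 3) gave a log2 difference of -0.42 ± 0.12 (SE, 95% interval -0.68 to -0.16, limma adjusted p = 0.0239). These are low levels: the everolimus mean was 0.29 above the array median, close to the middle of all probe sets. The call was lost without HSC-1 DMSO replicate 1 (limma adjusted p = 0.0513), without HSC-1 DMSO replicate 3 (0.119), without HSC-1 everolimus replicate 2 (0.139) and in a fit on the 6 HSC-1 arrays alone (0.0578). Over its 22 alternatives the adjusted p ran from 0.00517 to 0.139.

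In A431, IRS1 was at 5.76, 5.74 and 5.82 with DMSO and at 5.89, 5.82 and 5.63 with everolimus, and the groups overlapped. The log2 difference was 0.01 ± 0.12 (95% interval -0.25 to 0.27, limma adjusted p = 0.978). Taking the A431 effect from that in HSC-1 left -0.43 ± 0.18 (95% interval -0.80 to -0.06), which did not pass after adjustment (limma adjusted p = 0.136). It passed with array weights (-0.54, adjusted p = 0.0449) and reached 0.318 at the highest over its 21 alternatives. The fall of IRS1 is therefore not shown to differ between the lines.

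EGFR, the receptor of the EGF family, did not pass in either line. The HSC-1 levels were 12.54, 12.54 and 12.49 with DMSO and 12.53, 12.56 and 12.52 with everolimus, and those in A431 were 11.67, 11.63 and 11.64 with DMSO and 11.57, 11.62 and 11.71 with everolimus. Within each line the treatments overlapped. The log2 difference was 0.01 ± 0.03 in HSC-1 (95% interval -0.06 to 0.09, limma adjusted p = 0.835) and -0.01 ± 0.03 in A431 (95% interval -0.09 to 0.06, limma adjusted p = 0.884), and the difference between them was 0.03 ± 0.05 (95% interval -0.07 to 0.13, limma adjusted p = 0.800). The sign of each of these 3 values turned under 1 or 2 alternatives. EGFR lay above 99.6% or more of all probe sets on each array, and the table carries no flag for saturated probe sets, so a compressed difference at this height was not tested.

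**Figure D2:**
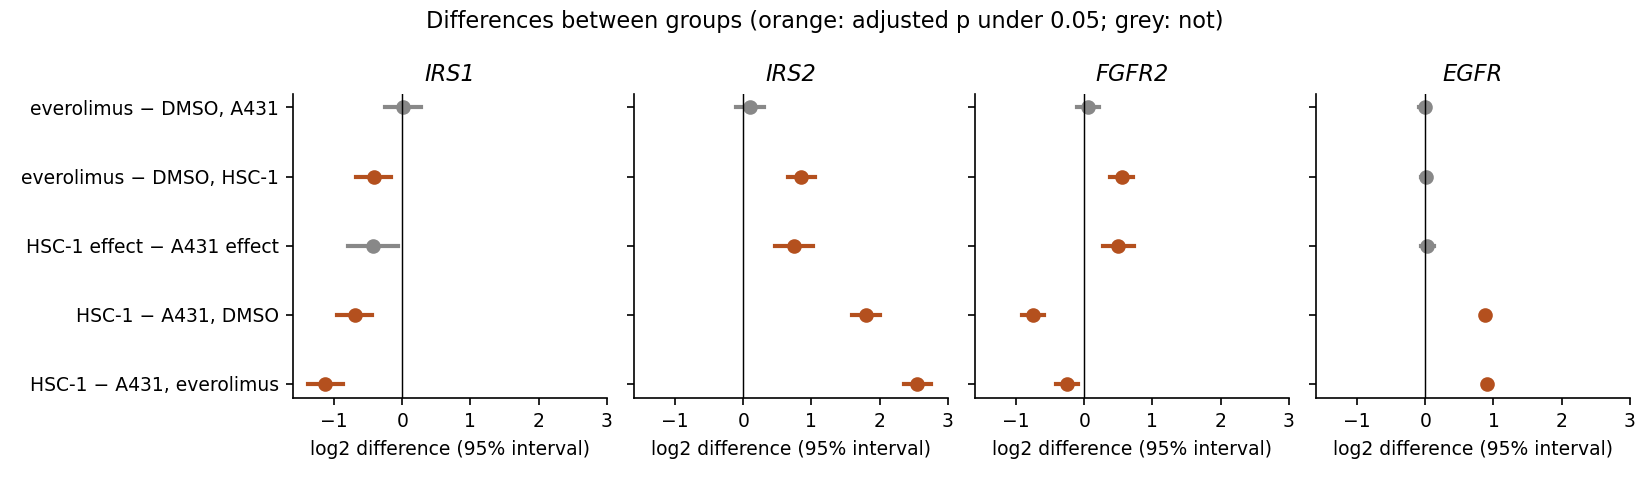
Log2 differences of the 4 genes in the 5 comparisons (points) with 95% intervals (lines). Orange marks an adjusted p under 0.05 and grey the others; the difference between the lines is orange for IRS2 (0.75) and FGFR2 (0.50) and grey for IRS1 (-0.43) and EGFR (0.03).

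The lines differed in all 4 genes before treatment, in a comparison where 59.4% of all genes passed, 29.2% higher and 30.2% lower in HSC-1. In DMSO, IRS2 was 3.48-fold higher in HSC-1 than in A431 (log2 difference 1.80 ± 0.09, limma adjusted p = 5.01e-12) and EGFR 1.84-fold higher (0.88 ± 0.03, limma adjusted p = 8.58e-14). FGFR2 was 1.69-fold lower in HSC-1 (-0.75 ± 0.08, limma adjusted p = 8.27e-08) and IRS1 1.62-fold lower (-0.70 ± 0.12, limma adjusted p = 7.44e-05). For each gene the 3 DMSO arrays of one line lay wholly apart from those of the other, as for 65.3% of all genes. The higher EGFR signal on this probe set was in HSC-1 and not in A431. Both lines lay near the top of the array scale, and compression of this gap was not tested.

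With everolimus, the gap between the lines was wider than in DMSO for IRS2 and narrower for FGFR2. For IRS1 and EGFR the change of the gap did not pass (adjusted p = 0.136 and 0.800 in limma). IRS2 was 5.87-fold higher in HSC-1 than in A431 (2.55 ± 0.09, limma adjusted p = 3.79e-14), and IRS1 was 2.18-fold lower (-1.13 ± 0.12, limma adjusted p = 2.03e-07). FGFR2 was 1.19-fold lower (-0.26 ± 0.08, limma adjusted p = 0.00764), and EGFR 1.88-fold higher (0.91 ± 0.03, limma adjusted p = 6.37e-14). Of all genes, 59.3% passed in this comparison, 28.2% higher and 31% lower in HSC-1, and 63.1% had lines that did not overlap, as all 4 genes did. These values rest on the same arrays as the treatment effects, so they are another view of them and no separate evidence.

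Ordered from low to high, IRS2 ran from A431 with DMSO and A431 with everolimus, which did not differ beyond their spread, through HSC-1 with DMSO to HSC-1 with everolimus. FGFR2 was lowest in HSC-1 with DMSO, then HSC-1 with everolimus, with both A431 groups highest and not separated. IRS1 had HSC-1 with everolimus lowest, HSC-1 with DMSO next and the A431 groups highest and not separated. For EGFR the A431 groups lay below the HSC-1 groups, and neither pair was separated by treatment.

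**Figure D3:**
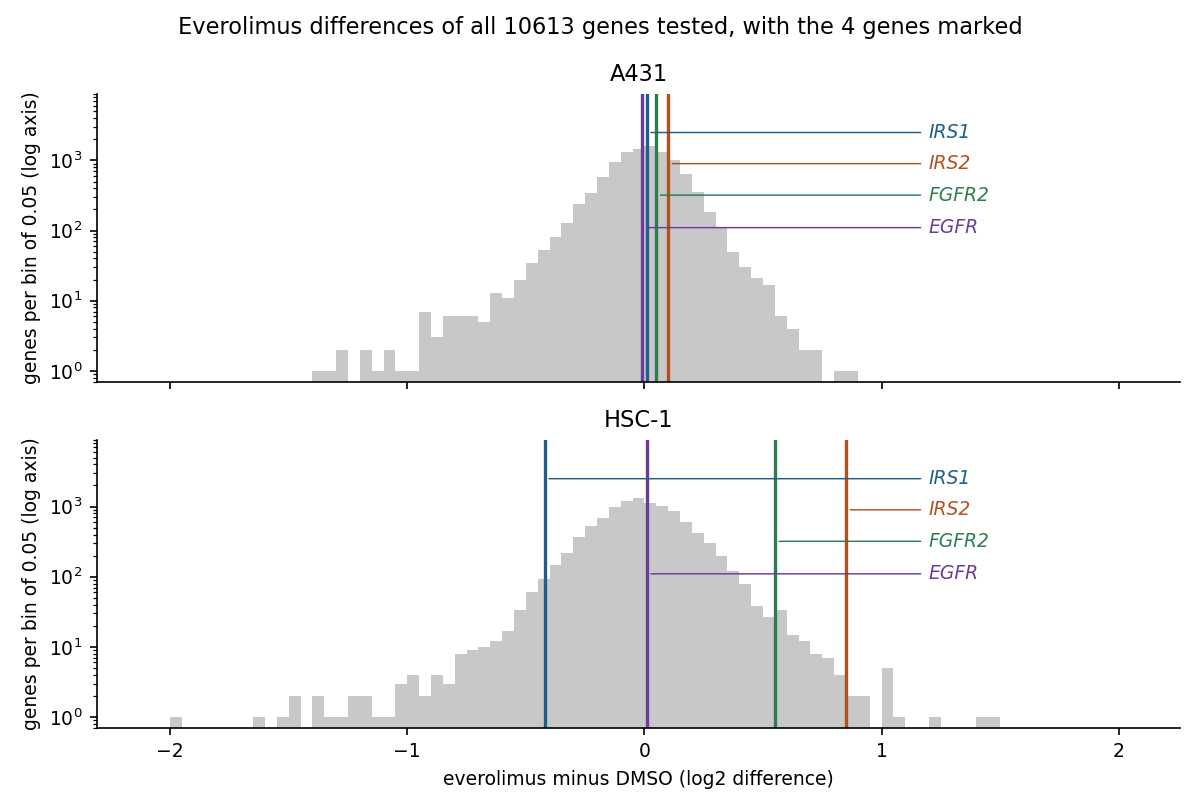
Everolimus minus DMSO (log2 difference) of all 10613 genes tested in A431 (top) and HSC-1 (bottom), as counts per bin of 0.05 on a log axis. Vertical lines mark the 4 genes, which lie between -0.01 and 0.10 in A431 and at -0.42 (IRS1), 0.01 (EGFR), 0.55 (FGFR2) and 0.85 (IRS2) in HSC-1.

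The 250 bases before the most upstream start in the RefSeq promoter table are shown for IRS2, FGFR2 and IRS1. These genes were taken because they passed in HSC-1. Of them, 2 passed upwards and 1 downwards, IRS1, whose call was lost under some alternatives. They come from the RefSeq promoter table of GRCh38.p14, in which all 4 genes were found, and lie at chr13:109786584-109786833 for IRS2, chr10:121598445-121598694 for FGFR2 and chr2:226799821-226800070 for IRS1, all on the minus strand. The FGFR2 start used, at 121598444, lies within the RefSeq gene, which reaches 121598458. The windows are written 5′ to 3′, with matches to the searched motifs in capitals.
IRS2: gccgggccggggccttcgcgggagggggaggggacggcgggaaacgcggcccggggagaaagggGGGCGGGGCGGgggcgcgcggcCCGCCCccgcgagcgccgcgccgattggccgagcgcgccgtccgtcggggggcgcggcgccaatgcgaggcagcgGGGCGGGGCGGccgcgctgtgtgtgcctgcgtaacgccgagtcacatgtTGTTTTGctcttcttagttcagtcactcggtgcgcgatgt
FGFR2: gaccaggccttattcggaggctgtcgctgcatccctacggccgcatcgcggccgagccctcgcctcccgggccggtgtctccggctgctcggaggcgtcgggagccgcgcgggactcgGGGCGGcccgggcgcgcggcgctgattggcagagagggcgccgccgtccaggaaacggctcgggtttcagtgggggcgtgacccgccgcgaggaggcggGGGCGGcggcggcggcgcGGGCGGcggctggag
IRS1: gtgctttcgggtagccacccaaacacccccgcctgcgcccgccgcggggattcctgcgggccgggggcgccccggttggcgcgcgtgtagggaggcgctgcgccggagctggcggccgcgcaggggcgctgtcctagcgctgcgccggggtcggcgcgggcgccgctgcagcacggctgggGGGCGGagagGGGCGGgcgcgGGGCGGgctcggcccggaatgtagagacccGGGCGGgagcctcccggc

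The motifs were searched on both strands in windows of 250 bases before a start: the forkhead motif GTAAACA, the insulin response motif TGTTTTG, the GC box GGGCGG, the E-box CACGTG and the AP-1 motif TGANTCA. Matches of the GC box may overlap. TGTTTTG was found once in the IRS2 window, from 40 to 34 bases before the start, and not in the windows shown for FGFR2 and IRS1 or in that of EGFR. Of 34943 such windows over all genes, 4.31% hold it. The GC box was found 5 times for IRS2, 3 times for FGFR2, 4 times for IRS1 and 2 times for EGFR, and 42.5% of all windows hold it. The forkhead motif (2.98% of windows), the E-box (6.32%) and the AP-1 motif (6.59%) had 0 matches in these 4 windows. Among all 9 windows of the 4 genes, that of another EGFR start held the AP-1 motif 2 times. A match is a run of letters in the reference genome, not a measured binding site.

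The pathway around the 4 genes was described with 14 gene lists, 181 genes in all, of which 135 had a named probe set and 104 were tested. Leaving out the 4 genes, 100 were tested: 15 rose and 14 fell in HSC-1, and 8 rose and 8 fell in A431. Over all genes tested, 7.34% rose and 11.3% fell in HSC-1, and 2.39% rose and 4.33% fell in A431. The counts of each list below are to be read beside these shares. The median log2 difference of the 100 genes was -0.03 in HSC-1 and -0.04 in A431, against -0.02 and 0.00 over all genes tested. The lists were chosen with earlier results of these data known, and the counts are descriptions.

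Among the insulin and IGF receptors, 2 of 4 rose in HSC-1, against 7.34% of all genes, and 0 of 4 passed in A431, against 6.73%. In A431, 1 of 4 had an unadjusted p under 0.05, against 19.1% of all genes. IGF1R, the IGF1 receptor that signals through IRS proteins, rose in HSC-1 by 0.41 ± 0.05 (limma adjusted p = 1.14e-05), from 8.09 ± 0.05 to 8.50 ± 0.05 (SD, n = 3). In A431 its difference was 0.16 ± 0.05 (limma adjusted p = 0.0606). IGF2R, which clears IGF2 and sorts lysosomal enzymes, rose in HSC-1 by 0.15 ± 0.04 (limma adjusted p = 0.0258). Its call was lost in 7 of 22 alternatives, among them without HSC-1 DMSO replicates 1 and 2 and HSC-1 everolimus replicates 1 and 3, at up to 0.123. INSR, the insulin receptor, had differences of 0.29 ± 0.14 in HSC-1 (limma adjusted p = 0.177) and 0.16 ± 0.14 in A431 (0.617). It lay above the array median on 1 of 3 arrays in each A431 group. Of 5 IGF ligands and binding proteins tested, IGFBP7 rose in HSC-1 (0.21 ± 0.04, limma adjusted p = 0.00143). The carrier of circulating IGFs, IGFBP3, fell in A431 (-0.31 ± 0.08, limma adjusted p = 0.0326). The IGFBP3 call was lost without any 1 of the 6 A431 arrays and without the intensity trend, at up to 0.119.

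Of 9 IRS and related adaptors, 3 fell and 1 rose in HSC-1, IRS1 and IRS2 among them, where 18.6% of all genes passed. In A431, 0 passed by limma, and 2 of 9 had an unadjusted p under 0.05, against 19.1% of all genes. The SH2 adaptors GRB2 and SHC1, which link receptors to RAS, fell in HSC-1 by 0.21 ± 0.07 (limma adjusted p = 0.0374) and 0.16 ± 0.05 (limma adjusted p = 0.0440). Both calls were near the threshold. GRB2 lost it in 7 of 22 alternatives, among them without any HSC-1 DMSO array or HSC-1 everolimus replicate 3, at up to 0.170. SHC1 lost it in 10, among them without HSC-1 DMSO replicates 1 and 2, HSC-1 everolimus replicates 2 and 3, A431 DMSO replicates 1 and 2 and A431 everolimus replicate 1, at up to 0.170. Of 10 negative regulators of IRS, 2 rose and 2 fell in HSC-1 and 0 passed in A431. TRIB3, a stress-induced pseudokinase that binds AKT, fell by 0.35 ± 0.07 (limma adjusted p = 0.00107). CUL7 and FBXW8, the scaffold and F-box subunits of a ubiquitin ligase that degrades IRS1 protein, rose by 0.35 ± 0.11 (limma adjusted p = 0.0343) and 0.18 ± 0.06 (limma adjusted p = 0.0326). The CUL7 call was lost in 6 of 22 alternatives, among them without HSC-1 DMSO replicates 1 and 3 and HSC-1 everolimus replicates 1 and 2, at up to 0.170. The FBXW8 call was lost in 7, among them without any HSC-1 DMSO array and HSC-1 everolimus replicates 1 and 2, at up to 0.144. The other that fell was MUL1 (-0.16 ± 0.05, limma adjusted p = 0.0441), a call near the threshold for which no alternatives are given. In A431, 2 of 10 had an unadjusted p under 0.05, against 19.1% of all genes. The smallest p among these regulators in A431 was that of SOCS6 (-0.24 ± 0.09, limma adjusted p = 0.128).

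Of 6 PI3 kinase and AKT genes tested, out of 18 listed, 0 passed in HSC-1 by limma. There 1 had an unadjusted p under 0.05, as did 3187 of all 10613 genes. In A431, PHLPP2 passed. PHLPP2, a phosphatase that removes phosphate from AKT, rose by 0.34 ± 0.08 (limma adjusted p = 0.0173), a call lost without A431 DMSO replicates 1 and 3 and A431 everolimus replicate 2, at up to 0.0917. Of 7 mTOR complex genes, MTOR, the kinase itself, rose in A431 (0.25 ± 0.05, limma adjusted p = 0.00245), and AKT1S1 and MAPKAP1 fell and TSC2 rose in HSC-1. Over all genes tested, 6.73% passed in A431 and 18.6% in HSC-1. AKT1S1, an inhibitor within mTOR complex 1, fell by 0.41 ± 0.07 (limma adjusted p = 0.000247), and TSC2, which restrains the complex through RHEB, rose by 0.28 ± 0.06 (limma adjusted p = 0.00414). MAPKAP1, a subunit of mTOR complex 2, fell by 0.19 ± 0.05 (limma adjusted p = 0.00773, and 0.0543 without the intensity trend).

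Beside EGFR, ERBB3 was the 1 other ERBB receptor tested, and it moved in opposite directions in the lines. ERBB3, a partner of the other ERBB receptors with a weak kinase and many docking sites for PI3 kinase, rose in HSC-1 by 0.25 ± 0.08 (limma adjusted p = 0.0305) and fell in A431 by 0.28 ± 0.08 (limma adjusted p = 0.0326). Each call was lost in 6 of 22 alternatives, with any HSC-1 DMSO array or HSC-1 everolimus replicate 1 or 2 left out in the first case, at up to 0.0994, and with any A431 DMSO array or A431 everolimus replicate 2 or 3 left out in the second, at up to 0.175. The difference between the lines, 0.53 ± 0.11, passed (limma adjusted p = 0.0037). ERBB2 had no named probe set here, and ERBB4 lay below the array median on every array.

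Of 6 ERBB ligands tested, 0 passed in A431 by limma, where 1 had an unadjusted p under 0.05, against 19.1% of all genes. In HSC-1, 2 fell, against 11.3% of all genes. HBEGF, a membrane-bound EGFR ligand, fell by 0.84 ± 0.09 (limma adjusted p = 5.16e-06), and NRG1, a ligand of ERBB3 and ERBB4, fell by 0.49 ± 0.07 (limma adjusted p = 7.52e-05). NRG4 had the smallest p in A431 (-0.46 ± 0.14, limma adjusted p = 0.0546). Of 7 negative regulators of ERBB receptors, LRIG3 rose in HSC-1 (0.47 ± 0.07, limma adjusted p = 0.000181), ERRFI1 fell there and SOCS4 rose in A431. Over all genes tested, 18.6% passed in HSC-1 and 6.73% in A431. ERRFI1, a cytosolic inhibitor of the EGFR kinase, fell by 0.15 ± 0.05 (limma adjusted p = 0.0362), a call lost in 7 of 22 alternatives, among them without HSC-1 DMSO replicates 1 and 2 and HSC-1 everolimus replicates 2 and 3, at up to 0.134. The SOCS4 rise was 0.29 ± 0.07 (limma adjusted p = 0.0144), a call lost without A431 DMSO replicates 1 and 3, A431 everolimus replicate 1 and the intensity trend, at up to 0.0700.

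FGFR2 was the 1 FGF receptor that passed, in HSC-1, where 18.6% of all genes passed. None did in A431, where 6.73% of all genes passed. FGFRL1 had differences of -0.14 ± 0.14 in HSC-1 (limma adjusted p = 0.578) and 0.27 ± 0.14 in A431 (0.317). FGFR3 had differences of 0.05 ± 0.09 in HSC-1 (limma adjusted p = 0.767) and -0.09 ± 0.09 in A431 (0.658). FGFR4 had differences of -0.08 ± 0.13 (limma adjusted p = 0.760) and 0.21 ± 0.13 (0.432), and FGFR1 lay below the array median on every array. FGFBP1, a secreted protein that releases FGFs from the matrix, fell in both lines, by 0.92 ± 0.07 in A431 (limma adjusted p = 8.9e-08) and by 0.47 ± 0.07 in HSC-1 (limma adjusted p = 6.58e-05). Of 10 FGF ligands tested, FGF5 fell in HSC-1 from 5.35 ± 0.24 to 4.59 ± 0.14 (SD, n = 3), close to the array median. The difference was -0.76 ± 0.16 (limma adjusted p = 0.0022), and 11.3% of all genes fell in this line. In A431, 0 of 10 passed by limma and 0 had an unadjusted p under 0.05, against 19.1% of all genes. FGF3 had the smallest p there (0.17 ± 0.12, limma adjusted p = 0.493).

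Of 6 feedback inhibitors of RAS signalling, SPRY4 and DUSP7 fell in HSC-1, and DUSP6 rose and DUSP5 fell in A431. Over all genes tested, 11.3% fell in HSC-1, and 2.39% rose and 4.33% fell in A431. DUSP6, a phosphatase of ERK, rose by 0.40 ± 0.07 (limma adjusted p = 0.00207), and DUSP5, its nuclear relative, fell by 0.51 ± 0.12 (limma adjusted p = 0.0158). The DUSP5 call was lost in 4 of 22 alternatives: without A431 DMSO replicates 1 and 3, without A431 everolimus replicate 2, and at up to 0.119 with the mean of its probe sets. SPRY4, an inhibitor of receptor signalling to RAS, fell by 0.32 ± 0.10 (limma adjusted p = 0.0321), a call lost in 5, among them without HSC-1 DMSO replicates 1 and 3 and HSC-1 everolimus replicates 2 and 3, at up to 0.146. DUSP7 fell by 0.26 ± 0.07 (limma adjusted p = 0.0133, and 0.0579 without HSC-1 DMSO replicate 3).

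Of 12 FOXO factors and linked genes tested, 4 rose, 0 fell and 8 did not pass in HSC-1. Over all genes tested, 7.34% rose and 11.3% fell there. In A431, 1 rose and 1 fell, against 2.39% and 4.33% of all genes. The medians were 0.13 in HSC-1 and -0.11 in A431, against -0.02 and 0.00 over all genes. In HSC-1, KLHL24, a ubiquitin ligase adaptor, rose by 1.04 ± 0.08 (limma adjusted p = 2.67e-08). TXNIP, an inhibitor of glucose uptake, rose by 0.73 ± 0.07 (limma adjusted p = 3.57e-07), and the unconventional cyclin CCNG2 by 0.46 ± 0.09 (limma adjusted p = 0.00103). The fourth was RBL2, a relative of the retinoblastoma protein (0.23 ± 0.07, limma adjusted p = 0.0321). The RBL2 call was near the threshold, and no alternatives are given for it. The factors themselves did not pass in either line: FOXO1 had a difference of 0.18 ± 0.12 in HSC-1 (limma adjusted p = 0.320), FOXO3 one of -0.01 ± 0.12 (0.961) and FOXO4 one of -0.08 ± 0.12 (0.729). In A431 the transcriptional repressor BCL6 fell by 0.42 ± 0.07 (limma adjusted p = 0.000766), and BCL2L11, the apoptosis inducer BIM, rose by 0.37 ± 0.08 (limma adjusted p = 0.00995, and 0.0506 without A431 DMSO replicate 2).

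Among 14 other receptor tyrosine kinases, 3 rose and 1 fell in HSC-1, and 3 rose and 3 fell in A431. Over all genes tested, 18.6% passed in HSC-1 and 6.73% in A431. AXL, the GAS6 receptor, rose in both lines, by 0.51 ± 0.05 in A431 (limma adjusted p = 1.77e-06) and by 0.23 ± 0.05 in HSC-1 (limma adjusted p = 0.00187). MET, the HGF receptor, rose in HSC-1 by 0.30 ± 0.04 (limma adjusted p = 8.38e-05) and in A431 by 0.20 ± 0.04 (limma adjusted p = 0.00775), and the difference between the lines did not pass (0.10 ± 0.06, limma adjusted p = 0.357). DDR1, a collagen receptor, was the third that rose in HSC-1 and one of those that fell in A431, with PTK7 and EPHA1. Ephrin receptors went several ways: EPHA2 fell in HSC-1 (-0.29 ± 0.06, limma adjusted p = 0.00117), EPHA4 rose in A431 (0.54 ± 0.10, limma adjusted p = 0.00131) and EPHA1 fell there (-0.28 ± 0.07, limma adjusted p = 0.0295). The EPHA1 call was lost without any A431 DMSO array and without A431 everolimus replicates 2 and 3, at up to 0.118.

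**Figure D4:**
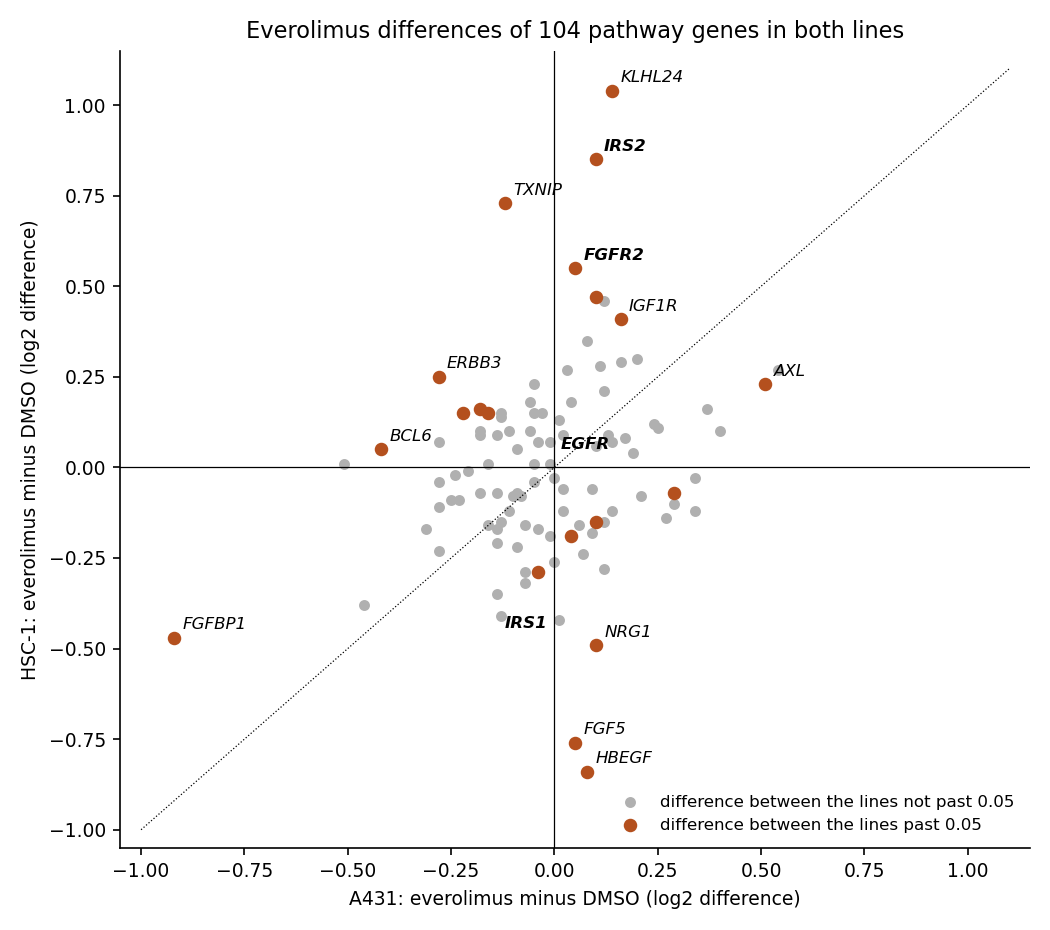
Everolimus minus DMSO (log2 difference) in A431 (horizontal) and HSC-1 (vertical) for the 104 pathway genes tested; the dotted line marks equal differences. Orange points passed the test of the difference between the lines. IRS2, FGFR2, KLHL24 and TXNIP lie high in HSC-1 with A431 differences between -0.12 and 0.14, HBEGF lies low in HSC-1, and FGFBP1 is low in both.

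Before treatment the lines also differed in partners of the 4 genes, in a comparison where 59.4% of all genes tested passed. In DMSO, HSC-1 had less ERBB3 than A431 (log2 difference -1.39 ± 0.08, limma adjusted p = 1.2e-11) and more of the EGFR inhibitors ERRFI1 (1.66 ± 0.05, limma adjusted p = 1.39e-15) and LRIG1 (1.38 ± 0.12, limma adjusted p = 1.44e-08). Of 6 ERBB ligands tested, 3 were lower and 2 higher in HSC-1, against 30.2% and 29.2% of all genes. NRG4 was lower in HSC-1 (-3.69 ± 0.14, limma adjusted p = 4.54e-14). So was the EGFR ligand EREG, which averaged 4.34 there, at the array median, so no size of its difference is given. HBEGF (1.09 ± 0.09, limma adjusted p = 7.63e-09) and NRG1 (0.98 ± 0.07, limma adjusted p = 5.48e-10), which fell in HSC-1 with everolimus, were higher there in DMSO. HSC-1 had more GRB10, an adaptor that inhibits insulin receptor signalling (1.16 ± 0.13, limma adjusted p = 4.27e-07). It had less IGFBP3 (-4.26 ± 0.08, limma adjusted p = 7.48e-18) and SOCS6, another inhibitor of the pathway (-1.45 ± 0.09, limma adjusted p = 5.01e-11). In DMSO, IGFBP3 averaged 4.53 in HSC-1 and GRB10 4.46 in A431, near the array median, which limits the size of both differences. INSR averaged 4.92 in HSC-1 and 4.20 in A431, below the array median. INSR reached the level filter only with HSC-1 arrays, so no size of its difference is given. The AKT phosphatases went opposite ways: PHLPP1 was lower in HSC-1 (-3.34 ± 0.07, limma adjusted p = 7.37e-18) and PHLPP2 higher (1.25 ± 0.08, limma adjusted p = 2.29e-10). SESN3, a FOXO target that inhibits mTOR complex 1, averaged 6.68 ± 0.22 in HSC-1 (SD, n = 3) and lay below the median of every A431 array. It entered the test only through HSC-1, so no size of the difference is given. DUSP6 (1.64 ± 0.07, limma adjusted p = 5.27e-13) and DUSP4 (0.96 ± 0.11, limma adjusted p = 6.48e-07) were higher in HSC-1.

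Genes most like each of the 4 were sought by Pearson correlation over the 12 arrays after taking out the mean of each line, among 10612 other genes. The points share treatment and line, so these are descriptions. For IRS2 they were AKAP9, a scaffold of protein kinase A (r = 0.974), the matrix protein MXRA5 (0.962) and the lysosomal peptidase TPP1 (0.960). FGFR2 was most like VPS41 (0.980), a subunit of the lysosomal tethering complex HOPS, TMBIM4 (0.970) and the splicing factor SRSF11 (0.967). For IRS1 they were MDC1, a DNA damage mediator (0.924), the cell cycle factor E2F1 (0.923) and the tubulin chaperone TBCB (0.908). EGFR reached 0.890 with PAIP2, an inhibitor of poly(A)-binding protein. After taking out the mean of each group instead, AKAP9 remained among the 3 nearest to IRS2 (0.918) and VPS41 among those to FGFR2 (0.95), and the 3 nearest to IRS1 and EGFR were other genes.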

How the data were processed

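RNA from A431 and HSC-1 cells was measured on 12 Affymetrix whole-transcript arrays, 3 for each line and treatment. The authors deposited log2 probe set values, produced by RMA in Expression Console (Affymetrix) per the submitters' processing notes, with no version listed. A genome build is not given in the sources used here. Because RMA gives each array the same distribution, shifts in total RNA cannot be seen. Precision is limited by the 3 arrays per group.

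The platform annotation gave 16098 of 53617 probe sets 1 gene symbol each and 0 several, and left 37519 without a name. Symbols were updated through Entrez identifiers for all 16098 (gene table of GRCh38.p14). Each gene was represented by its probe set of highest mean, and 10613 genes with 3 or more of 12 arrays over the array median entered the test. Group means were fitted with limma 3.58.1 in R 4.3.3 (lmFit, contrasts and eBayes with trend, 8 residual df), with Benjamini-Hochberg adjustment over all genes tested and a threshold of 0.05. The procedure was tested on simulated data. The 4 genes and the lists were chosen with earlier results of these data known. Named genes were, per list, up to 3 past the threshold with the largest difference in each treatment comparison (otherwise the smallest p) and up to 2 between the lines in DMSO; FOXO factors, INSR, FGF receptors, MET in A431, HBEGF and NRG1 in DMSO, RBL2, MUL1 and PTK7 outside it were added after their values were seen.

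The main fit did not pair arrays by replicate number. Alternatives were a replicate block, no and a stricter level filter (60th percentile), eBayes without trend or robust, array weights, repeated quantile normalization, median centring, a fit on just the 6 arrays compared, averaged probe sets, leaving out each array and, for counts, an adjusted p of 0.01.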

Additional observations from a re-analysis of the deposited data

Results flagged for a closer look

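The everolimus effect differed between HSC-1 and A431, by the test of that difference in limma, for 2 of the 4 genes and for 18 other named genes. FGF5 is among the 18, but its low level in A431 leaves its difference undecided, as given below. IRS2 differed by 0.75 ± 0.13 (HSC-1 0.85, A431 0.10, adjusted p = 0.00109) and FGFR2 by 0.50 ± 0.11 (HSC-1 0.55, A431 0.05, adjusted p = 0.00611). Over all genes tested, 4.84% passed upwards and 5.69% downwards.

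Other genes whose HSC-1 effect minus A431 effect was above 0 and passed under all 21 alternatives were KLHL24 (0.90), TXNIP (0.85), ERBB3 (0.53), BCL6 (0.47), FGFBP1 (0.46) and DDR1 (0.31). These are not all stronger responses in HSC-1. FGFBP1 fell in both lines, less in HSC-1 (-0.47) than in A431 (-0.92). BCL6 fell in A431 (-0.42), with 0.05 in HSC-1. ERBB3 and DDR1 rose in HSC-1 (0.25 and 0.15) and fell in A431 (-0.28 and -0.16). For HBEGF (-0.92) and NRG1 (-0.59) this value was below 0 under all 21. Both fell in HSC-1 (-0.84 and -0.49), with 0.08 and 0.10 in A431. AXL (-0.28) rose less in HSC-1 than in A431, at an adjusted p of 0.0115 and of 0.0550 without the intensity trend.

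The remaining differences, also past the threshold, were lost in part of the 21 alternatives, mostly those that leave out a single array of either line. FGF5 (-0.80, lost in 7, adjusted p up to 0.0805) averaged 4.07 in A431 with DMSO, below the array median. A fall there could hardly have been measured. The test therefore cannot decide whether the FGF5 effect differed between the lines, and -0.80 is not read as a size. The others were GRB7 (0.38, lost in 8, up to 0.0798), LRIG3 (0.38, lost in 7, up to 0.0786), SOCS4 (-0.37, lost in 5, up to 0.0707), PHLPP1 (0.33, lost in 6, up to 0.0725) and EPHA2 (-0.26, lost in 12, up to 0.131). ERRFI1 (-0.25) was lost in 5 at up to 0.0926, IGF1R (0.25) in 9 at up to 0.0879 and MAPKAP1 (-0.23) in 10 at up to 0.131. Groups of 3 arrays were not examined for outlying arrays.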

How the results depend on the processing

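Of the 20 values of the 4 genes in 5 comparisons, 14 kept direction and side of the threshold under all alternatives. IRS1 in HSC-1 lost its call on the 6 arrays alone (-0.42) and ranged from -0.50 to -0.29 with an array left out, and its difference between the lines passed with array weights (-0.54). Values near 0 changed sign: with an array left out, IRS1 in A431 ranged from -0.04 to 0.09, EGFR in A431 from -0.05 to 0.02, in HSC-1 from 0 to 0.02 and between the lines from 0 to 0.07, and EGFR in HSC-1 was -0.01 after repeated quantile normalization. The cause was not tested. The number of genes called in A431 was 714, 438 without the intensity trend and 456 to 836 with an array left out (456 without A431 DMSO replicate 2). At an adjusted p of 0.01, genes called numbered 347 in A431, 1115 in HSC-1 (1977 at 0.05) and 541 between the lines (1118 at 0.05). Same-numbered DMSO and everolimus arrays of a line correlated at -0.155 to 0.0181 in their deviations, and arrays of unlike number at up to 0.173. No sign of pairing by number was seen, but deviations from means of 3 arrays cannot exclude it. With the replicate block IRS2 in HSC-1 had an adjusted p of 2.19e-05, all 20 values kept their call, 3 of 92 other named results lost theirs, and 621 genes passed in A431 and 1845 in HSC-1. Of the 92, 57 held under all alternatives. Levels near the array median, as for IRS1 in HSC-1, limit the size of a difference.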
